A study of Mus musculus with 30 samples.

Results

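Fatty acid oxidation and ketone body synthesis were followed through 33 genes in mouse liver, all found by symbol among the 17990 genes of the deposited count table. By the place of their proteins, 9 were peroxisomal, 14 mitochondrial and 3 shared by both organelles, 1 was ketogenic, and 6 activated, carried or diverted fatty acids and their products. The libraries came from livers of ICR mice, an outbred stock, at 10 weeks of age, with 3 libraries in each of 10 groups and each liver said to come from a different litter's offspring. Dams had drunk 2,4-BPS, BPSIP, BPS or 17β-estradiol (E2) at 10 ng/mL in water with 0.001% ethanol through pregnancy and nursing, about 40 days, with a target of 5 µg daily per kg. Control dams drank the same ethanol. The groups are called F (female) or M (male) with the compound's name or Control, and exposure ended at weaning. BPS is bisphenol S, 2,4-BPS is an isomer in which a hydroxyl group sits at another ring position, and BPSIP carries an isopropyl ether in place of a hydroxyl group. All compounds were thus compared at a matched dose and time. The labels tie no liver to a named dam, and 8 dams made up each exposure.

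Fatty acids enter oxidation as acyl-CoA. Mitochondria take up long chains through the carnitine shuttle and shorten them by β-oxidation, peroxisomes handle very long, branched and dicarboxylic chains, and liver mitochondria turn surplus acetyl-CoA into ketone bodies that other tissues burn. In rodent liver many of these genes are switched on together by PPARα, a nuclear receptor that binds fatty acids and, as a partner of RXR, a direct repeat of AGGTCA with 1 base between the copies. Fasting is a textbook setting in which many of these genes rise.

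Libraries held 29711711 to 37719069 counts, and the lowest count of any member in any library was 68, for Acot2. Levels are given as CPM, counts scaled to a common library size with TMM factors, and ± beside CPM is the SD over 3 libraries. The median coefficient of variation over the members was 1.73% to 5.58% in a group, against 7.81% to 10.7% over all kept genes. The members and all kept genes were not matched for level, and counting error weighs more in genes of low counts. The 3 libraries labelled M Control did not match their label. Their summed Y-linked level was 84.7 to 95.3 CPM, against 131 to 169 CPM in exposed males and at most 0.543 CPM in females, and their summed level of 10 female-specific liver genes was 3481 to 4049 CPM, against 4.59 to 15.6 CPM in exposed males and 6566 to 9008 CPM in females. Exposed males were therefore tested against each other and never against these libraries, whose values are given apart. The hepatocyte markers summed to 105500 to 140500 CPM in females and 71170 to 92440 CPM in exposed males, and no hepatocyte marker was at 0 in a group. Albumin (Alb) makes up most of that sum, at 79290 to 107500 CPM in females and 37190 to 55360 CPM in exposed males.

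The members covered more than 3 orders of magnitude. On the deposited FPKM scale, which divides by gene length and allows levels of different genes to be compared, Fabp1, the liver's cytosolic fatty acid carrier, averaged 9287 over the 27 libraries other than M Control. Next came Ech1, an isomerase of unsaturated chains found in both organelles, at 433 FPKM, the peroxisomal thiolase Acaa1b at 391 FPKM, the peroxisomal bifunctional enzyme Ehhadh at 266 FPKM and the medium-chain dehydrogenase Acadm at 263 FPKM. At the low end stood the thioesterase Acot8 at 6.26 FPKM, the pyruvate dehydrogenase kinase Pdk4 at 3.96 FPKM and the mitochondrial thioesterase Acot2 at 3.40 FPKM. Some members are near copies. Of the 50-base stretches of Acaa1a transcripts 26.7% also occur in Acaa1b, and 35.5% of those of Acaa1b occur in Acaa1a. The thioesterases Acot2 (chr12:83987861-83993873), Acot1 (chr12:84009490-84018371), Acot4 (chr12:84038379-84048601) and Acot3 (chr12:84052144-84060402) lie side by side in GRCm38. For Acot1 and Acot2 the shares found in other Acot genes were 31.8% and 27.6%, for Acot3 7.57% and for Acot4 4.36%. Reads from those stretches may be split between the copies, and the single values of these genes carry that uncertainty.

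**Figure D1:**
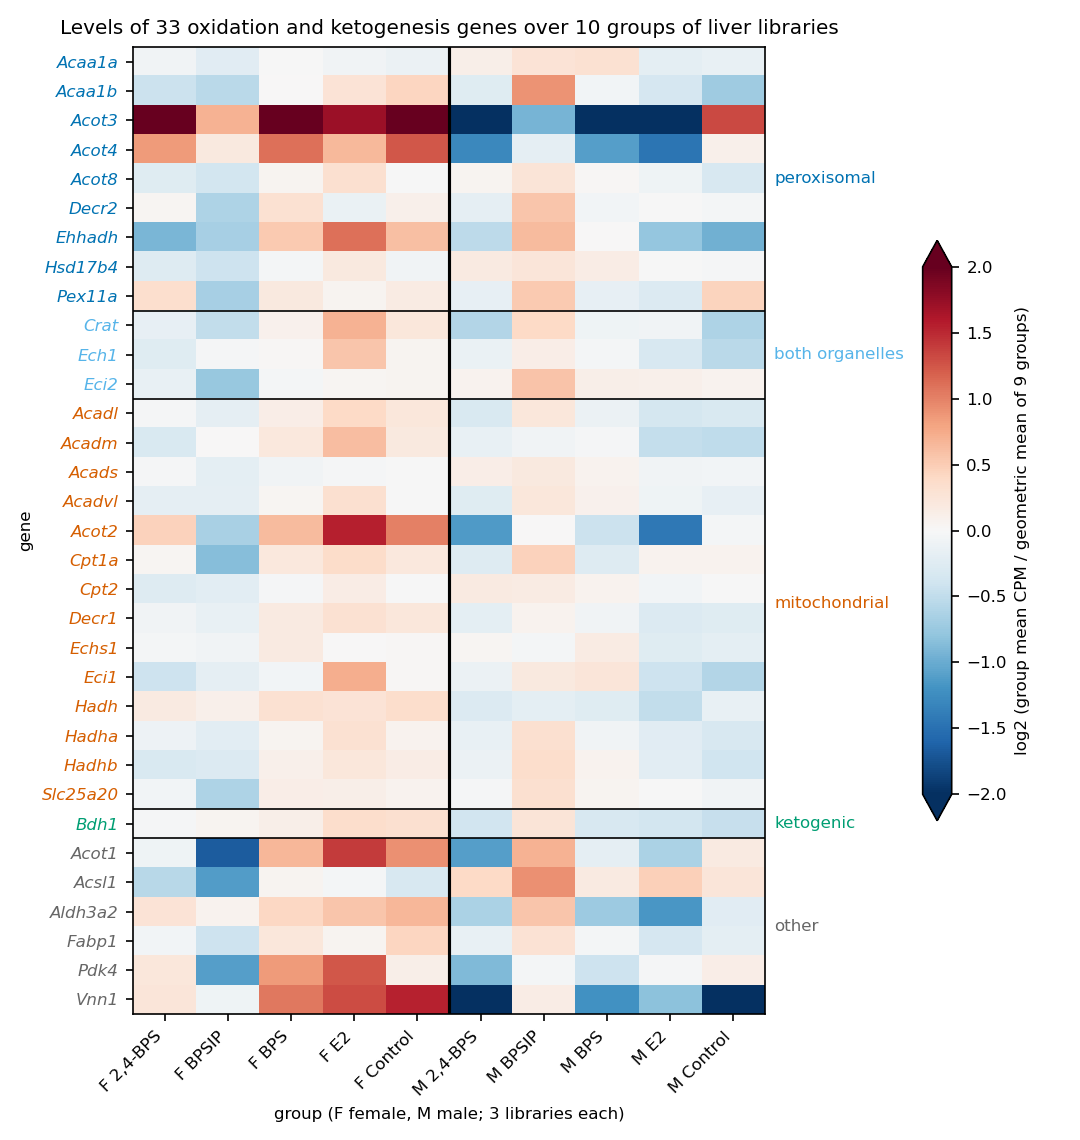
Level of each of the 33 genes (rows, by class) in the 10 groups (columns, females left of males), as log2 of the group mean CPM over the geometric mean of the 9 groups other than M Control. The F BPSIP column is the lowest of the 5 female columns for 25 genes (27.6% of all 14131 kept genes), and the M BPSIP column the highest of the 4 exposed male columns for 27 genes (24.9% of all kept genes).

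The spaced repeat was searched in the RefSeq promoters of the members, 300 bases each with 250 before and 50 after the gene start (GRCm38.p6). The search was made because most members moved the same way in some comparisons, such as F BPSIP minus F Control. A promoter was given for 29 of the 33, and the pattern was AGGTCA, any 1 base and AGGTCA again, on either strand. An exact copy was found in 0 of the 29 members and in 0.0481% of 27025 genes. With 1 mismatch allowed the pattern was found in 1 member, Fabp1, and in 0.644% of all genes. With 2 mismatches it was found in 4 members, Fabp1, Acot4, Echs1 and Slc25a20, and in 4.4% of all genes. With 3 mismatches it was found in 10 of the 29 members and in 27.3% of all genes, and with 4 in 23 members and in 81.9%. The allowance of mismatches was chosen after the exact search had found nothing. The 4 closest matches are printed with 10 bases on each side, read on the gene's own strand, with the matched bases in capitals. In Fabp1 and Acot4 the repeat runs on the opposite strand, where the matched bases read AGGCCATAGGTCA and CGGCCAAAGGTCA.
Fabp1: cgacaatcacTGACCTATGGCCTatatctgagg
Acot4: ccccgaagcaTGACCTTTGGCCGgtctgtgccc
Echs1: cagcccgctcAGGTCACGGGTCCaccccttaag
Slc25a20: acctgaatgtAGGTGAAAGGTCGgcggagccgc
The match lies at chr6:71199812-71199824 for Fabp1, 61 bases before the gene start, at chr12:84038366-84038378 for Acot4, at chr7:140116492-140116504 for Echs1 and at chr9:108662142-108662154 for Slc25a20. Echs1 lies on the minus strand and the other 3 genes on the plus strand. The Slc25a20 match lies just after the gene start and the other matches before it. A match describes the letters of this window and is not a measured binding site. In F BPSIP minus F Control, the comparison described next, the log2 fold changes of these genes were -0.84 for Fabp1, -1.04 for Acot4, -0.09 for Echs1 and -0.69 for Slc25a20.

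In females, nearly the whole set was lower with BPSIP. Of the 33 members, 30 were lower and 0 higher in F BPSIP than in F Control, while 38.6% of the 13874 genes tested were called, 19.2% as lower and 19.4% as higher. The median log2 fold change over the members was -0.61, against -0.014 over all genes tested. Acaa1a, Echs1 and Ech1 did not pass, at -0.12, -0.09 and -0.071 on the log2 scale. By class, 8 of 9 peroxisomal members were lower (median -0.83), 13 of 14 mitochondrial members (median -0.27), 2 of 3 members of both organelles (median -0.72), all 6 of the remaining genes (median -1.03) and Bdh1.

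Among the genes that fell most were 3 thioesterases, Acot1, Acot3 and Acot2, enzymes that cleave acyl-CoA back to free fatty acid. Acot1, the cytosolic form, stood at 17.01, 17.4 and 16.5 CPM in F BPSIP, against 103, 98.01 and 104 CPM in F Control. Every exposed library lay far under every control library (log2 fold change -2.59 ± 0.073, adjusted p = 5.46e-26). Acot3, a peroxisomal form, stood at 61.8, 60.8 and 63.8 CPM in F BPSIP and 197, 189.6 and 209 CPM in F Control (log2 fold change -1.68 ± 0.055, adjusted p = 6.32e-24). Its neighbour Acot4, also peroxisomal and active on dicarboxylic chains, stood at 53.6, 51.5 and 52.2 CPM in F BPSIP and 113, 107 and 105 CPM in F Control (log2 fold change -1.04 ± 0.057, adjusted p = 2.43e-17). The mitochondrial Acot2 was at 3.75, 4.82 and 2.904 CPM in F BPSIP and 11.9, 12.3 and 12.4 CPM in F Control (log2 fold change -1.67 ± 0.14, adjusted p = 4.53e-12). In none of these 4 genes did the groups overlap.

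The gate of mitochondrial oxidation fell by close to 1 log2 unit. Cpt1a, the outer-membrane carnitine palmitoyltransferase that limits the entry of long chains, was at 336, 344 and 357 CPM in F BPSIP, against 733, 706 and 715 CPM in F Control, with no overlap (log2 fold change -1.06 ± 0.056, adjusted p = 8.38e-18). Slc25a20, the carnitine carrier of the inner membrane and the next step inward, was at 81.2, 83.1 and 78.8 CPM in F BPSIP and 129, 132 and 130.4 CPM in F Control (log2 fold change -0.69 ± 0.056, adjusted p = 1.14e-12). Cpt2, which reforms acyl-CoA in the matrix, differed less, at 144, 149 and 164 CPM in F BPSIP and 181, 180.4 and 168 CPM in F Control (log2 fold change -0.22 ± 0.057, adjusted p = 0.00223). The enzymes of the spiral itself were lower by smaller amounts. The acyl-CoA dehydrogenases Acadvl, Acadl, Acadm and Acads changed by -0.17, -0.41, -0.18 and -0.19, the trifunctional subunits Hadha and Hadhb by -0.29 and -0.42, and the short-chain dehydrogenase Hadh by -0.25, all called lower. The auxiliary enzymes of unsaturated chains Decr1 and Eci1 changed by -0.37 and -0.20, also called lower.

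Among peroxisomal members, Ehhadh, which carries out the middle steps of the peroxisomal spiral, was at 438, 446 and 456 CPM in F BPSIP, against 1087, 1082 and 1069 CPM in F Control. Every exposed library lay far below every control library (log2 fold change -1.28 ± 0.05, adjusted p = 8.9e-22). Acaa1b was at 578, 557 and 580.0 CPM in F BPSIP and 1113, 1117 and 1116 CPM in F Control (log2 fold change -0.97 ± 0.056, adjusted p = 1.17e-16). Pex11a, which drives peroxisome division, was at 69.2, 66.9 and 71.6 CPM in F BPSIP and 119.8, 126 and 124 CPM in F Control (log2 fold change -0.83 ± 0.055, adjusted p = 4.28e-15). The second multifunctional enzyme Hsd17b4 changed by -0.34, the dienoyl reductase Decr2 by -0.72 and the thioesterase Acot8 by -0.37 on the log2 scale, all called lower. Of the members found in both organelles, the isomerase Eci2 and the carnitine acetyltransferase Crat changed by -0.81 and -0.72.

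The ketogenic member was lower too. Bdh1, the mitochondrial enzyme that turns acetoacetate into β-hydroxybutyrate, stood at 478, 475 and 478 CPM in F BPSIP and 571, 568 and 576 CPM in F Control, without overlap (log2 fold change -0.26 ± 0.048, adjusted p = 3.1e-05). Around the pathway, Vnn1, a pantetheinase and a known PPARα target of mouse liver, was at 34.8, 44.9 and 41.4 CPM in F BPSIP and 123, 119.9 and 133 CPM in F Control (log2 fold change -1.64 ± 0.073, adjusted p = 2.71e-19). Pdk4, which holds back glucose oxidation when fat is burned, was at 5.65, 4.38 and 6.95 CPM in F BPSIP and 11.9, 14.8 and 12.96 CPM in F Control (log2 fold change -1.23 ± 0.12, adjusted p = 2.16e-10). The long-chain acyl-CoA synthetase Acsl1, Fabp1 and the fatty aldehyde dehydrogenase Aldh3a2 changed by -0.80, -0.84 and -0.61 on the log2 scale, all called lower.

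Markers of other cells moved with this exposure. Of 10 Kupffer cell and macrophage markers, 9 rose and 0 fell in F BPSIP, and they summed to 1966 to 2182 CPM in F BPSIP and 1184 to 1233 CPM in F Control, with no marker at 0. Of 8 neutrophil markers 5 rose, with sums of 54.2 to 71.0 CPM in F BPSIP and 33.1 to 42.1 CPM in F Control. Of 7 lymphocyte markers 3 rose. Endothelial markers fell with the members, 5 of 8 lower and 1 higher, with sums of 334.7 to 350.1 CPM in F BPSIP and 431.5 to 437.3 CPM in F Control. Of 10 hepatocyte markers 3 fell and 1 rose, with sums of 105500 to 118900 CPM in F BPSIP and 111300 to 115200 CPM in F Control. In bulk liver, fewer cells of a type and less RNA per cell cannot be told apart, and the part of the marker shifts in the members' fall was not tested.

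**Figure D2:**
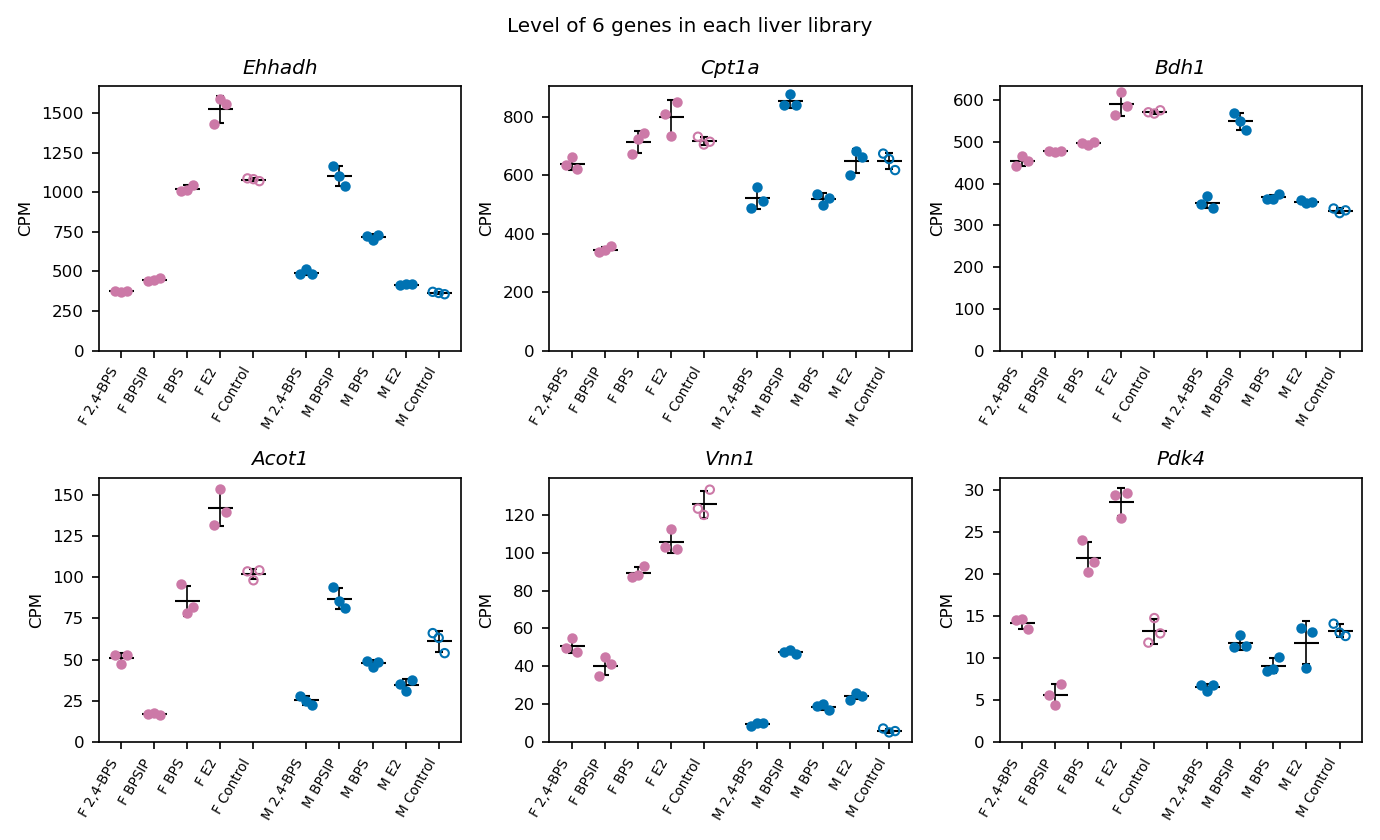
CPM of 6 genes in each library, by group, with females in pink left of males in blue and controls as open points. Bars give the mean ± SD of 3 libraries. F BPSIP is the lowest female group for Cpt1a, Acot1, Vnn1 and Pdk4, and M BPSIP the highest exposed male group for Ehhadh, Cpt1a, Bdh1, Acot1 and Vnn1.

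Females exposed to 2,4-BPS also held less RNA of the set, with smaller changes. Here 24 members were lower and 1 higher than in F Control, while 19.3% of all genes tested were called, 8.42% as lower and 10.9% as higher. The median was -0.24 over the members and 0.0034 over all genes. Of the peroxisomal members 4 were lower and 1 higher of 9 (median -0.17), of the mitochondrial members 11 of 14 were lower (median -0.21), and all 3 shared members, Bdh1 and 5 of the remaining 6 were lower.

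The largest change was in Ehhadh, at 378, 372 and 375 CPM in F 2,4-BPS against 1087, 1082 and 1069 CPM in F Control. The exposed livers lay within a few CPM of each other and far below the controls (log2 fold change -1.52 ± 0.05, adjusted p = 4.28e-23). Vnn1 was at 49.8, 54.9 and 47.6 CPM in F 2,4-BPS and 123, 119.9 and 133 CPM in F Control (log2 fold change -1.30 ± 0.072, adjusted p = 4.38e-16), and Acot1 at 52.96, 47.1 and 52.7 CPM in F 2,4-BPS and 103, 98.01 and 104 CPM in F Control (log2 fold change -0.99 ± 0.067, adjusted p = 3.73e-14). In both genes the groups were far apart. Bdh1 was at 442, 465 and 454 CPM in F 2,4-BPS and 571, 568 and 576 CPM in F Control (log2 fold change -0.33 ± 0.048, adjusted p = 2.37e-06). Cpt1a, at 637, 663 and 622 CPM in F 2,4-BPS and 733, 706 and 715 CPM in F Control, passed narrowly (log2 fold change -0.16 ± 0.055, adjusted p = 0.0384), and without F 2,4-BPS replicate 1 or 3 or any 1 of the controls its adjusted p was 0.0714 to 0.138. Pex11a was the member called higher, at 134, 144 and 137 CPM in F 2,4-BPS and 119.8, 126 and 124 CPM in F Control (log2 fold change 0.17 ± 0.054, adjusted p = 0.0214). That call was lost without F 2,4-BPS replicate 2 (adjusted p = 0.145), F Control replicate 1 (0.107) or F Control replicate 3 (0.0615). Acot3, so low in F BPSIP, was at 192, 203 and 198 CPM in F 2,4-BPS and 197, 189.6 and 209 CPM in F Control, and these overlapped. Of the Kupffer cell and macrophage markers 9 of 10 rose in this group as well, with sums of 1642 to 1744 CPM in F 2,4-BPS and 1184 to 1233 CPM in F Control, while 5 of 8 neutrophil markers fell, with sums of 21.8 to 27.4 CPM in F 2,4-BPS and 33.1 to 42.1 CPM in F Control. Of the endothelial markers 3 of 8 rose, and of the stellate cell markers 3 of 7. Of the hepatocyte markers 4 of 10 rose, with sums of 126200 to 140500 CPM in F 2,4-BPS and 111300 to 115200 CPM in F Control. The part of these shifts in the members' change was not tested.

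With BPS, the parent compound, fewer members were called than with the other exposures. In F BPS 4 members were higher and 7 lower than in F Control, while 16.8% of all genes tested were called, 9.32% as higher and 7.5% as lower, and the median was -0.042. Pdk4 was at 24.05, 20.3 and 21.5 CPM in F BPS and 11.9, 14.8 and 12.96 CPM in F Control, without overlap (log2 fold change 0.74 ± 0.11, adjusted p = 5.12e-06). Acsl1 was at 1208, 1262 and 1340.2 CPM in F BPS and 1004, 954 and 981 CPM in F Control (log2 fold change 0.38 ± 0.054, adjusted p = 1.29e-06), and Decr2 at 291, 303 and 297 CPM in F BPS and 262, 256 and 259 CPM in F Control (log2 fold change 0.20 ± 0.049, adjusted p = 0.00283). In both the exposed livers were all above the controls. On the lower side, Vnn1 was at 87.3, 88.2 and 92.8 CPM in F BPS and 123, 119.9 and 133 CPM in F Control (log2 fold change -0.48 ± 0.07, adjusted p = 3.6e-06), and Acaa1b at 845, 815 and 839 CPM in F BPS and 1113, 1117 and 1116 CPM in F Control (log2 fold change -0.41 ± 0.055, adjusted p = 5.91e-07). Acot2, at 10.2, 9.22 and 8.53 CPM in F BPS and 11.9, 12.3 and 12.4 CPM in F Control, sat at the threshold (log2 fold change -0.37 ± 0.13, adjusted p = 0.0493), and without 1 of 5 libraries (F BPS replicates 2 and 3, F Control replicates 1, 2 and 3) its adjusted p was 0.0855 to 0.19. Bdh1 was at 496, 494 and 499 CPM in F BPS and 571, 568 and 576 CPM in F Control (log2 fold change -0.19 ± 0.048, adjusted p = 0.00374). For Cpt1a, at 673, 726 and 745 CPM in F BPS and 733, 706 and 715 CPM in F Control, the groups overlapped and no difference was found (adjusted p = 0.979, SE 0.057 on the log2 scale). Ehhadh was at 1010.1, 1011 and 1046 CPM in F BPS and 1087, 1082 and 1069 CPM in F Control (log2 fold change -0.068 ± 0.049, adjusted p = 0.383). Of the peroxisomal members 1 was higher and 1 lower of 9, and of the mitochondrial members 1 was higher and 1 lower of 14. Markers of other cells moved here too. All 8 neutrophil markers fell, with sums of 15.5 to 18.6 CPM in F BPS and 33.1 to 42.1 CPM in F Control, and 5 of 10 macrophage markers fell and 1 rose, with sums of 1071 to 1170 CPM in F BPS and 1184 to 1233 CPM in F Control. Of the lymphocyte markers 4 of 7 fell. Of the hepatocyte markers 5 of 10 rose, with sums of 116200 to 130400 CPM in F BPS and 111300 to 115200 CPM in F Control, and the part of these shifts was not tested.

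With E2, the estrogen used beside the bisphenols, members moved both ways. In F E2 14 members were higher and 6 lower than in F Control, while 21% of all genes tested were called, 10.4% as higher and 10.6% as lower. Of the mitochondrial members 7 were higher and 0 lower of 14 (median 0.15), of the shared members 2 were higher of 3, and of the peroxisomal members 2 were higher and 4 lower of 9 (median -0.11). Pdk4 rose most, at 29.5, 26.7 and 29.7 CPM in F E2 against 11.9, 14.8 and 12.96 CPM in F Control (log2 fold change 1.11 ± 0.11, adjusted p = 6.16e-10). Eci1, a mitochondrial isomerase of unsaturated chains, was at 244, 279 and 262 CPM in F E2 and 162, 158 and 161 CPM in F Control (log2 fold change 0.70 ± 0.058, adjusted p = 4.92e-12), and Acot2 at 16.1, 20.5 and 16.3 CPM in F E2 and 11.9, 12.3 and 12.4 CPM in F Control (log2 fold change 0.53 ± 0.13, adjusted p = 0.00249). Ehhadh, at 1427, 1587 and 1554 CPM in F E2 and 1087, 1082 and 1069 CPM in F Control, was higher here, the opposite of its change in F BPSIP and F 2,4-BPS (log2 fold change 0.49 ± 0.049, adjusted p = 4.35e-10). In these 4 genes all E2 livers lay above all controls.

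The 2 peroxisomal thioesterases of chromosome 12 fell. Acot3 was at 119, 128 and 130.5 CPM in F E2 and 197, 189.6 and 209 CPM in F Control (log2 fold change -0.66 ± 0.053, adjusted p = 2.55e-12), and Acot4 at 73.4, 67.9 and 74.9 CPM in F E2 and 113, 107 and 105 CPM in F Control (log2 fold change -0.59 ± 0.057, adjusted p = 2.11e-10), while their neighbours Acot1 and Acot2 rose (0.47 ± 0.066 and 0.53 ± 0.13 on the log2 scale). Fabp1 was at 4365, 5301 and 4872 CPM in F E2 and 6198, 6211 and 6315 CPM in F Control (log2 fold change -0.37 ± 0.064, adjusted p = 3.71e-05). Cpt1a was at 812, 735 and 852 CPM in F E2 and 733, 706 and 715 CPM in F Control (log2 fold change 0.15 ± 0.055, adjusted p = 0.0449), a call lost without any 1 of F Control replicates 1, 2 and 3 and F E2 replicates 1 and 3 (adjusted p = 0.0627 to 0.273). Bdh1, at 564, 619 and 586 CPM in F E2 and 571, 568 and 576 CPM in F Control, overlapped with the controls (log2 fold change 0.041 ± 0.048, adjusted p = 0.619). Of the macrophage markers 6 of 10 fell and 1 rose, with sums of 1054 to 1061 CPM in F E2 and 1184 to 1233 CPM in F Control. Of the neutrophil markers 6 of 8 fell, with sums of 23.9 to 28.8 CPM in F E2 and 33.1 to 42.1 CPM in F Control, and of the endothelial markers 3 of 8 fell and 1 rose. Of the hepatocyte markers 2 rose and 2 fell, with sums of 126500 to 131300 CPM in F E2 and 111300 to 115200 CPM in F Control, and the part of these shifts was not tested. The 4 comparisons with F Control share those 3 control livers.

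**Figure D3:**
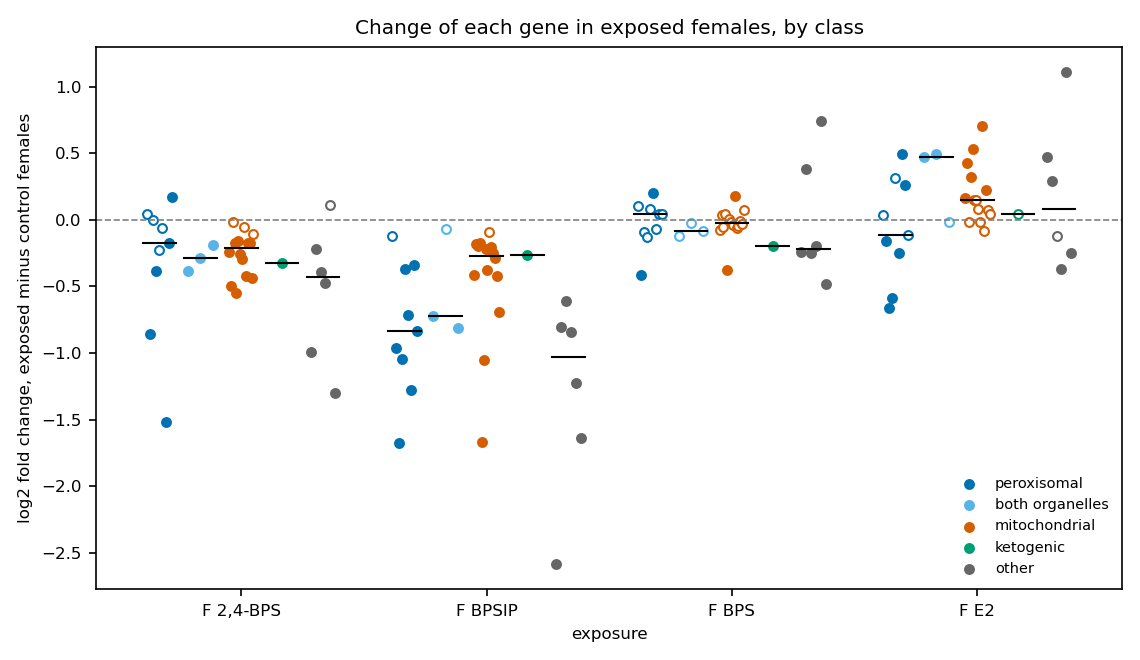
Log2 fold change of each gene in exposed minus control females (vertical axis) for the 4 exposures, coloured by class, with filled points for genes past an adjusted p of 0.05 and a bar at the median of each class. In F BPSIP the peroxisomal median is -0.83 and the mitochondrial median -0.27, and in F E2 7 of 14 mitochondrial genes are called higher.

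Set against each other, the bisphenols differed in females. The isopropyl ether BPSIP gave lower levels than BPS in 30 members and a higher level in 0, while 39.3% of all genes tested were called, 19.2% as higher and 20.1% as lower. The median was -0.45 over the members and -0.0038 over all genes. Acot1 was at 17.01, 17.4 and 16.5 CPM in F BPSIP and 95.7, 78.4 and 81.9 CPM in F BPS (log2 fold change -2.34 ± 0.073, adjusted p = 1.89e-24), and Pdk4 at 5.65, 4.38 and 6.95 CPM in F BPSIP and 24.05, 20.3 and 21.5 CPM in F BPS (log2 fold change -1.97 ± 0.12, adjusted p = 6.85e-16). The members without a call were Eci1, Bdh1 and Ech1. For Bdh1 the difference was -0.069 ± 0.048 on the log2 scale, at 477 ± 1.46 CPM in F BPSIP and 496 ± 2.86 CPM in F BPS (SD, n = 3). In F BPSIP minus F BPS 8 of 8 neutrophil, 7 of 7 lymphocyte and 9 of 10 macrophage markers were higher and 0 lower. Of 10 hepatocyte markers 5 were lower and 0 higher, and of 8 endothelial markers 5 were lower and 0 higher. The part of these shifts was not tested. The isomer 2,4-BPS gave lower levels than BPS in 25 members and higher in 0, while 19.5% of all genes were called, 10.2% as higher and 9.23% as lower. The median was -0.24 over the members and 0.0041 over all genes. Ehhadh, at 378, 372 and 375 CPM in F 2,4-BPS and 1010.1, 1011 and 1046 CPM in F BPS, differed most (log2 fold change -1.45 ± 0.05, adjusted p = 1.26e-22), followed by Vnn1 at 49.8, 54.9 and 47.6 CPM in F 2,4-BPS and 87.3, 88.2 and 92.8 CPM in F BPS (log2 fold change -0.82 ± 0.072, adjusted p = 6.79e-11). The 2 modified compounds differed from each other as well. Between F 2,4-BPS and F BPSIP 19 members were higher and 4 lower in F 2,4-BPS, while 35.5% of all genes were called, 18.3% as higher and 17.3% as lower. Acot3, at 198 ± 5.41 CPM in F 2,4-BPS and 62.1 ± 1.54 CPM in F BPSIP, and Acot1, at 50.9 ± 3.31 CPM in F 2,4-BPS and 16.96 ± 0.414 CPM in F BPSIP, were higher with the isomer (SD, n = 3; log2 fold changes 1.68 ± 0.055 and 1.59 ± 0.073). Acadm, at 424 ± 7.47 CPM in F 2,4-BPS and 531 ± 9.19 CPM in F BPSIP, and Ehhadh, at 375 ± 3.36 CPM in F 2,4-BPS and 446 ± 8.89 CPM in F BPSIP, were lower with it (log2 fold changes -0.31 ± 0.048 and -0.24 ± 0.049). Cpt1a and Pex11a were also higher with the isomer (0.90 ± 0.056 and 1.00 ± 0.055), and Eci1 and Ech1 lower (-0.22 ± 0.059 and -0.22 ± 0.052). Bdh1 differed by -0.064 ± 0.048 and was not called. In each sex 3 pairs of bisphenols and 3 pairs with E2 were compared, and p-values were adjusted over all genes within a pair, not over the pairs.

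Against E2, most members were lower in each bisphenol group of females. F BPSIP was lower in 32 members and higher in 0 (38.4% of all genes called, 18.6% as lower and 19.7% as higher). F 2,4-BPS was lower in 24 and higher in 4 (29.8% of all genes, 13.7% as lower and 16.1% as higher), and F BPS lower in 17 and higher in 6 (25.6% of all genes, 12.2% as lower and 13.4% as higher). Echs1, the short-chain hydratase of the mitochondrial spiral, was the member without a call between F BPSIP and F E2 (-0.073 ± 0.053 on the log2 scale). The widest gap of all female pairs was in Acot1, at 17.01, 17.4 and 16.5 CPM in F BPSIP and 132, 153 and 139.7 CPM in F E2 (log2 fold change -3.06 ± 0.074, adjusted p = 5.36e-28). Pdk4 was at 5.66 ± 1.29 CPM in F BPSIP and 28.6 ± 1.65 CPM in F E2 (SD, n = 3; log2 fold change -2.34 ± 0.12, adjusted p = 3.56e-18). F 2,4-BPS exceeded F E2 most in Acot3 and Pex11a (0.66 ± 0.053 and 0.28 ± 0.054) and fell short of it most in Ehhadh and Acot1 (-2.01 ± 0.051 and -1.47 ± 0.068). F BPS exceeded F E2 most in Acot3 and Acot4 (0.57 ± 0.053 and 0.46 ± 0.057) and was lower most in Acot2 and Eci1 (-0.90 ± 0.13 and -0.77 ± 0.058).

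In males the order of the compounds was another one, with BPSIP at the top. M BPSIP exceeded M BPS in 26 members and was lower in 1, while 35.7% of all genes tested were called, 18.1% as higher and 17.6% as lower. The median was 0.39 over the members and -0.003 over all genes. Of the peroxisomal members 8 of 9 were higher (median 0.64), of the mitochondrial members 8 were higher and 1 lower of 14 (median 0.16), and all 3 shared members, Bdh1 and all 6 remaining genes were higher. Vnn1 was at 47.6, 48.8 and 46.4 CPM in M BPSIP and 18.9, 20.4 and 16.7 CPM in M BPS (log2 fold change 1.36 ± 0.089, adjusted p = 4.15e-20). Aldh3a2, which oxidises fatty aldehydes, was at 475, 500.3 and 466 CPM in M BPSIP and 198, 199 and 197 CPM in M BPS (log2 fold change 1.29 ± 0.044, adjusted p = 2.6e-33). In both genes every BPSIP library lay at more than 2-fold the level of every BPS library. Cpt1a was at 841, 879 and 842 CPM in M BPSIP and 538, 497 and 524 CPM in M BPS (log2 fold change 0.73 ± 0.046, adjusted p = 3.16e-20). Bdh1 was at 569.6, 549.7 and 529 CPM in M BPSIP and 363, 364 and 374 CPM in M BPS (log2 fold change 0.60 ± 0.043, adjusted p = 3.34e-18), and Ehhadh at 1167, 1105 and 1038 CPM in M BPSIP and 722, 699.7 and 730.2 CPM in M BPS (log2 fold change 0.64 ± 0.042, adjusted p = 9.65e-20). None of these groups overlapped. Echs1 was the member called lower, at 276, 256 and 261 CPM in M BPSIP and 302, 305 and 309.7 CPM in M BPS (log2 fold change -0.19 ± 0.044, adjusted p = 0.000341).

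M BPSIP also exceeded M E2 in 32 members and was lower in 0, while 26.6% of all genes were called, 12.2% as higher and 14.4% as lower. Acot3 was at 21.9, 20.3 and 18.4 CPM in M BPSIP and 3.901, 4.18 and 2.45 CPM in M E2 (log2 fold change 2.51 ± 0.16, adjusted p = 1.27e-19), and Aldh3a2 at 475, 500.3 and 466 CPM in M BPSIP and 149, 147 and 145 CPM in M E2 (log2 fold change 1.70 ± 0.045, adjusted p = 8.83e-40). The groups of both genes were far apart. Pdk4 was the member without a call, at 11.3, 12.8 and 11.4 CPM in M BPSIP and 13.6, 8.86 and 13.1 CPM in M E2 (-0.013 ± 0.14 on the log2 scale). M 2,4-BPS was lower than M BPSIP in 26 members and higher in 0 (31.6% of all genes called, 15.6% as lower and 16% as higher), most in Vnn1, at 8.58, 10.3 and 10.1 CPM in M 2,4-BPS and 47.6, 48.8 and 46.4 CPM in M BPSIP (log2 fold change -2.30 ± 0.094, adjusted p = 9.07e-30), and in Acot3, at 5.27, 5.499 and 3.58 CPM in M 2,4-BPS and 21.9, 20.3 and 18.4 CPM in M BPSIP (log2 fold change -2.08 ± 0.16, adjusted p = 6.84e-17). Endothelial markers rose with the members, 6 of 8 higher in M BPSIP than in M BPS and 0 lower, with sums of 398.7 to 418.7 CPM in M BPSIP and 300.2 to 310.7 CPM in M BPS. Of the macrophage markers 5 of 10 were higher and 1 lower, although their sums overlapped, at 659 to 698 CPM in M BPSIP and 644 to 674 CPM in M BPS. Of the neutrophil markers 3 of 7 tested were lower, with sums of 3.496 to 6.698 CPM in M BPSIP and 15.3 to 18.5 CPM in M BPS. Of the hepatocyte markers 5 were higher and 2 lower, with sums of 84290 to 86250 CPM in M BPSIP and 72170 to 74280 CPM in M BPS, and the part of these shifts in the higher levels was not tested.

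The remaining male pairs were mixed. M 2,4-BPS was lower than M BPS in 16 members and higher in 2 (27.8% of all genes called, 13% as lower and 14.8% as higher). Acot3 was at 5.27, 5.499 and 3.58 CPM in M 2,4-BPS and 10.7, 8.298 and 10.1 CPM in M BPS (log2 fold change -1.01 ± 0.16, adjusted p = 9.17e-07), and Vnn1 at 8.58, 10.3 and 10.1 CPM in M 2,4-BPS and 18.9, 20.4 and 16.7 CPM in M BPS (log2 fold change -0.94 ± 0.097, adjusted p = 5.1e-12). Acsl1 was higher, at 1541, 1723 and 1602 CPM in M 2,4-BPS and 1388, 1387 and 1409 CPM in M BPS (log2 fold change 0.23 ± 0.041, adjusted p = 1.02e-05). Cpt2 was called higher at 206, 197 and 199 CPM in M 2,4-BPS and 187, 181 and 190.1 CPM in M BPS (log2 fold change 0.12 ± 0.046, adjusted p = 0.0475), a call lost without any 1 of M 2,4-BPS replicates 1 and 3 and M BPS replicates 1, 2 and 3 (adjusted p = 0.0618 to 0.167). For Cpt1a and Bdh1 no difference was found between M 2,4-BPS and M BPS (0.016 ± 0.046 and -0.041 ± 0.043 on the log2 scale), and the livers overlapped.

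M BPS exceeded M E2 in 21 members and was lower in 4 (37.7% of all genes called, 17.3% as higher and 20.4% as lower). Acot3, at 10.7, 8.298 and 10.1 CPM in M BPS and 3.901, 4.18 and 2.45 CPM in M E2, and Acot2, at 3.41, 5.32 and 4.68 CPM in M BPS and 2.41, 2.12 and 2.16 CPM in M E2, led on the higher side (log2 fold changes 1.44 ± 0.17 and 0.98 ± 0.23). Vnn1 and Pdk4 led on the lower side (-0.40 ± 0.09 and -0.40 ± 0.14), with Pdk4 at 8.47, 8.74 and 10.1 CPM in M BPS and 13.6, 8.86 and 13.1 CPM in M E2, which overlap. That call was lost without any 1 of M BPS replicates 1 and 2 and M E2 replicates 1 and 3 (adjusted p = 0.0605 to 0.166). M 2,4-BPS was higher than M E2 in 12 members and lower in 7 (28.5% of all genes called, 13.4% as higher and 15.1% as lower), higher most in Aldh3a2 and Acadm (0.52 ± 0.044 and 0.31 ± 0.042) and lower most in Vnn1 and Pdk4 (-1.34 ± 0.096 and -0.87 ± 0.14). This split turns to 1 higher and 4 lower when a change of at least 1.2-fold is required.

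The difference between BPSIP and BPS ran in opposite directions in the sexes for most members. Called lower in females and higher in males were 24 of the 33 members, while 8.38% of 13167 genes tested in both sexes did so, and 1 member, Echs1, was called the same way in both, as were 5.07% of those genes. Tested directly as a difference of differences, (F BPSIP minus F BPS) minus (M BPSIP minus M BPS), 30 members were called lower and 0 higher, while 40.3% of all genes tested were called, 19.3% as lower and 21.1% as higher. The median was -0.98 over the members and 0.047 over all genes. By class it was -1.51 in peroxisomal, -1.06 in shared, -0.41 in mitochondrial and -2.12 in the remaining members. Ehhadh differed by -1.82 ± 0.065, adjusted p = 1.57e-33, Acsl1 by -1.91 ± 0.07, adjusted p = 8.35e-33 and Aldh3a2 by -1.63 ± 0.062, adjusted p = 6e-32 on the log2 scale. Acsl1 stood at 527, 569.7 and 590.3 CPM in F BPSIP and 1208, 1262 and 1340.2 CPM in F BPS, and at 2279, 2436 and 2226 CPM in M BPSIP and 1388, 1387 and 1409 CPM in M BPS. The female livers with BPSIP were below those with BPS, and the male livers with BPSIP above them, without overlap in either sex. The test took its spread from all 30 libraries, and without the 3 labelled M Control 31 members were called. Markers of cell types moved in the same test. Of 8 neutrophil markers 8 were higher, and of 10 macrophage markers 8 were higher and 0 lower. Of 10 hepatocyte markers 7 were lower and 1 higher, and of 8 endothelial markers 5 were lower and 0 higher. The part of these shifts in the members' difference was not tested.

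For E2 against BPS the turn went the other way. Higher in females and lower in males were 11 members, while 2.09% of genes did so, and 7 members were called the same way in both sexes, as were 8.95% of genes. In the test of the difference, (F E2 minus F BPS) minus (M E2 minus M BPS), 22 members were called higher and 2 lower, while 27.4% of all genes were called, 13.3% as higher and 14.1% as lower, and 24 were called without the libraries labelled M Control. Of the mitochondrial members 12 of 14 were called higher. Eci1 differed by 1.43 ± 0.077, adjusted p = 8.68e-24, Ehhadh by 1.36 ± 0.064, adjusted p = 1.46e-26 and Acadm by 0.85 ± 0.062, adjusted p = 6.55e-18. Eci1 was at 244, 279 and 262 CPM in F E2 and 159, 151 and 147 CPM in F BPS, and at 124, 116 and 117 CPM in M E2 and 193, 184 and 185 CPM in M BPS. Acadm was at 777, 836 and 815 CPM in F E2 and 589, 617 and 629 CPM in F BPS, and at 388, 370.0 and 377 CPM in M E2 and 513, 514 and 525 CPM in M BPS. For 2,4-BPS against BPS fewer members differed between the sexes, with 2 called higher and 8 lower in the difference of differences while 20.3% of all genes were called, 10.4% as higher and 9.91% as lower, and 13 members were called the same way in both sexes, as were 5.09% of genes. Ehhadh (-0.90 ± 0.064), Acsl1 (-0.82 ± 0.069) and Acadm (-0.40 ± 0.062) had the smallest p. Of 10 macrophage markers 2 were higher and 6 lower in the difference of differences for E2, and 10 higher and 0 lower for 2,4-BPS. Of 10 hepatocyte markers 2 were higher and 4 lower in each. The part of these shifts was not tested.

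**Figure D4:**
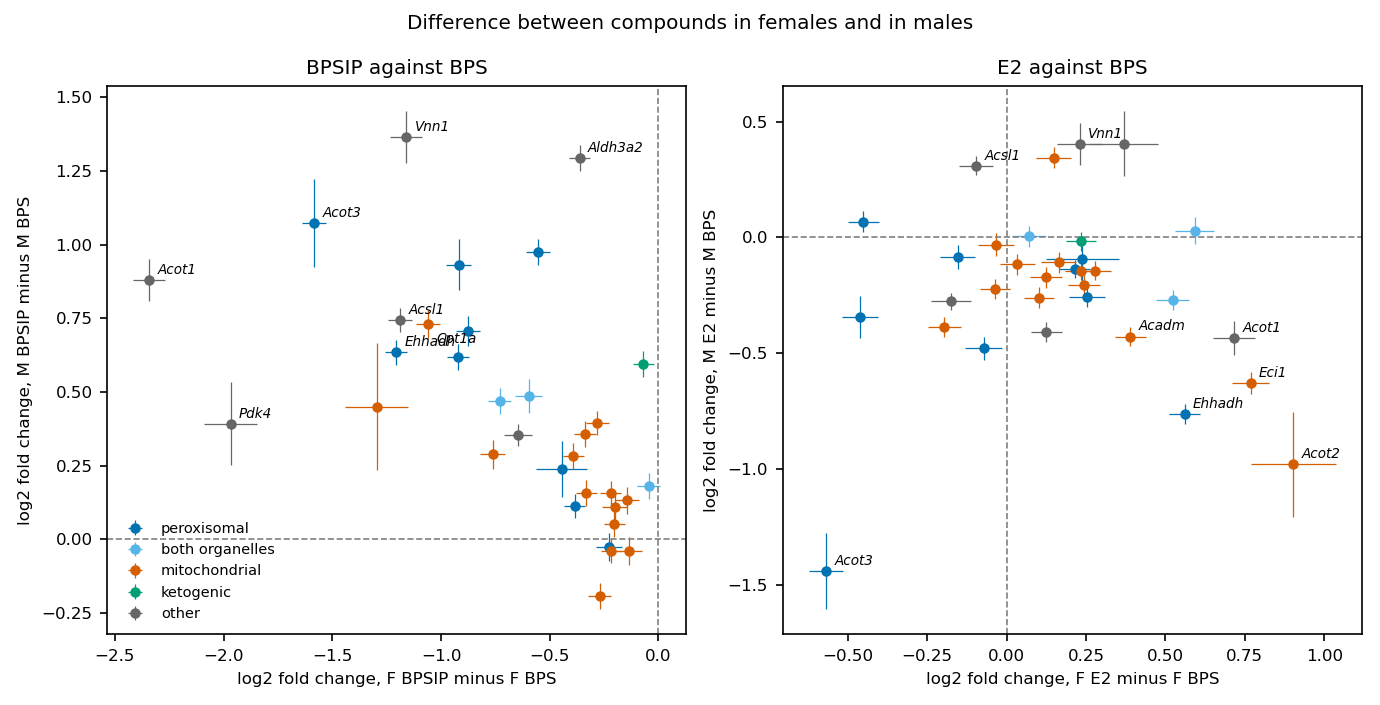
Log2 fold change of each gene in females (horizontal axis) and in males (vertical axis), for BPSIP minus BPS on the left and E2 minus BPS on the right, with bars for the SE. With BPSIP 24 genes are called lower in females and higher in males, and with E2 11 genes are called higher in females and lower in males.

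Within an exposure, the balance of members higher and lower in females than in males differed between the compounds. In E2 offspring 27 members were higher and 2 lower in females, with a median of 0.58 (34.6% of all genes called, 17.3% in each direction). In BPS offspring 19 were higher and 6 lower, with a median of 0.24 (39.5% of all genes, 19.4% as higher and 20.1% as lower). In 2,4-BPS offspring 15 were higher and 12 lower (47.4% of all genes, 23.9% as higher and 23.5% as lower). In BPSIP offspring 3 were higher and 28 lower, with a median of -0.53 (51.2% of all genes, 26.1% as higher and 25.1% as lower). Called in all were 29 (E2), 24 (BPS), 27 (2,4-BPS) and 31 (BPSIP) members without the libraries labelled M Control. Acot3 was the most female-biased member in each exposure. It stood at 192, 203 and 198 CPM in F 2,4-BPS and 5.27, 5.499 and 3.58 CPM in M 2,4-BPS (log2 fold change 5.37 ± 0.12, adjusted p = 3.35e-24), and at 119, 128 and 130.5 CPM in F E2 and 3.901, 4.18 and 2.45 CPM in M E2 (log2 fold change 5.16 ± 0.13, adjusted p = 3.27e-23). In BPS offspring it was at 185 ± 4.57 CPM in females and 9.69 ± 1.24 CPM in males (SD, n = 3; log2 fold change 4.25 ± 0.11, adjusted p = 1.95e-22). In BPSIP offspring the gap was smaller, at 61.8, 60.8 and 63.8 CPM in females and 21.9, 20.3 and 18.4 CPM in males (log2 fold change 1.62 ± 0.10, adjusted p = 6.91e-14). Its neighbour Acot4 differed by 2.14 ± 0.068, 0.38 ± 0.064, 2.21 ± 0.067 and 2.12 ± 0.069 in the 2,4-BPS, BPSIP, BPS and E2 offspring, and Vnn1 by 2.39 ± 0.09, -0.24 ± 0.079, 2.26 ± 0.084 and 2.12 ± 0.082.

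Acsl1 was the member lower in females in every exposure, by -0.95 ± 0.049, -2.04 ± 0.051, -0.13 ± 0.049 and -0.50 ± 0.049 on the log2 scale in the same order. In BPSIP offspring the widest gaps on the lower side were Acot1, at 17.01, 17.4 and 16.5 CPM in females and 93.8, 85.6 and 81.5 CPM in males (log2 fold change -2.36 ± 0.085, adjusted p = 7.24e-27), and Acsl1. In 2,4-BPS offspring Cpt2 followed Acsl1, at 147 ± 3.72 CPM in females and 201 ± 5.14 CPM in males (SD, n = 3; log2 fold change -0.45 ± 0.052, adjusted p = 6.99e-11). In BPS offspring Acaa1a and Eci1 were lowest (-0.32 ± 0.055 and -0.30 ± 0.055), and in E2 offspring Decr2 was the other member called lower (-0.14 ± 0.045, adjusted p = 0.0136), a call lost without F E2 replicate 1 (adjusted p = 0.0511). In E2 offspring Acot2 followed Acot3 on the higher side, at 16.1, 20.5 and 16.3 CPM in females and 2.41, 2.12 and 2.16 CPM in males (log2 fold change 2.98 ± 0.18, adjusted p = 1.05e-21). Of the 10 macrophage markers 10, 10, 9 and 9 were higher in females and 0 lower in the 2,4-BPS, BPSIP, BPS and E2 offspring. Of the 8 endothelial markers 7 were higher in females of the 2,4-BPS, BPS and E2 offspring (1 lower with BPS), while in BPSIP offspring 5 were lower and 1 higher. Hepatocyte markers moved both ways, with 3 higher and 6 lower (2,4-BPS), 2 higher and 8 lower (BPSIP), 4 higher and 5 lower (BPS) and 2 higher and 7 lower (E2) of 10 in females, although their sum, mostly Alb, was higher in females of each exposure. The part of these shifts in the gaps was not tested.

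**Figure D5:**
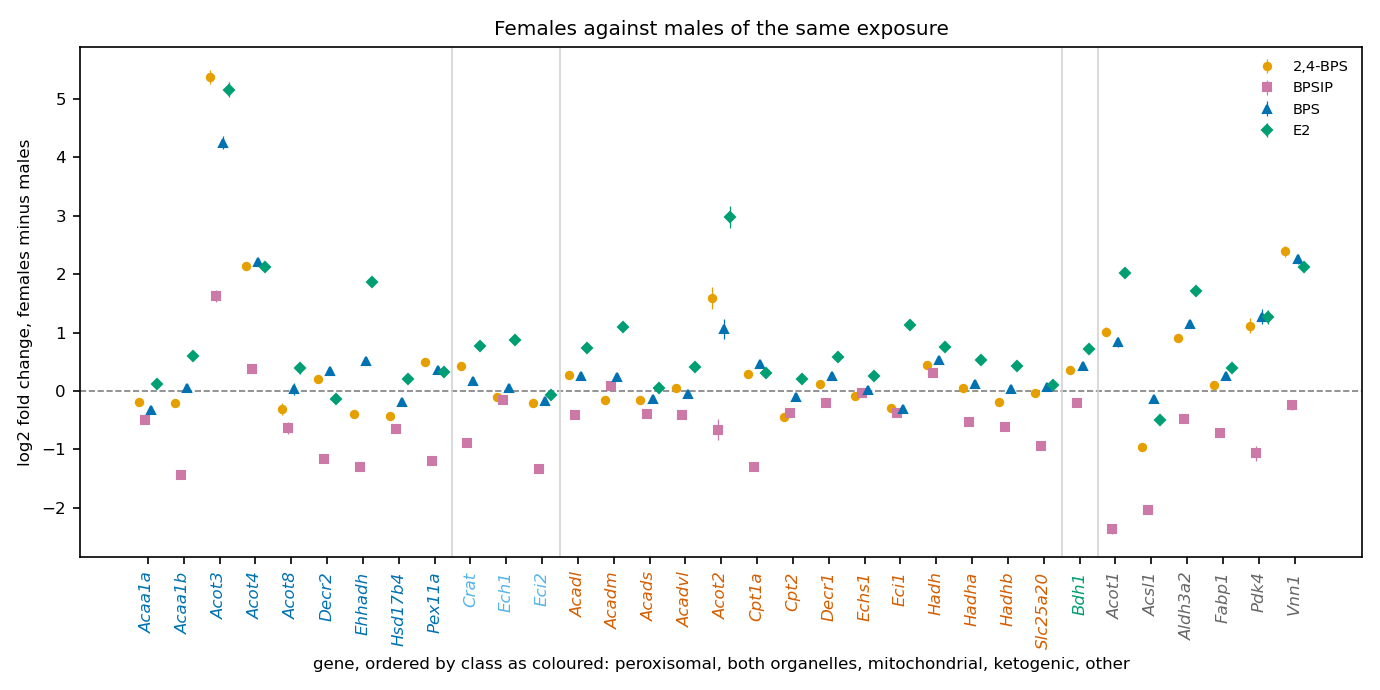
Log2 fold change of each gene in females minus males of the same exposure, with the SE as bars, genes ordered and coloured by class. Acot3 lies far above the others in the 2,4-BPS, BPS and E2 offspring, and in BPSIP offspring 28 of 33 genes are called lower in females.

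The other genes of the pathway, taken from lists that hold none of the members, were counted in the same comparisons. Their counts stand beside the shares of all genes tested given above, 19.2% lower and 19.4% higher in F BPSIP, 8.42% lower and 10.9% higher in F 2,4-BPS, 7.5% lower and 9.32% higher in F BPS, 10.6% lower and 10.4% higher in F E2, and 18.1% higher and 17.6% lower in M BPSIP minus M BPS. Of 33 other peroxisomal genes tested 18 were lower and 6 higher in F BPSIP than in F Control, 6 lower and 4 higher in F 2,4-BPS, 3 lower and 9 higher in F BPS, and 5 lower and 8 higher in F E2. Crot, which hands shortened chains to carnitine, was at 454 ± 3.25 CPM in F BPSIP and 851 ± 5.13 CPM in F Control (log2 fold change -0.91 ± 0.047, adjusted p = 5.63e-18), and at 512 ± 5.62 CPM in F 2,4-BPS (log2 fold change -0.73 ± 0.047, adjusted p = 1.05e-14). Nudt19 and Nudt7, peroxisomal hydrolases that break down CoA, rose in F BPSIP (0.91 and 0.50), while Nudt7 fell in F E2 (-1.07). Hacl1, a lyase of the α-oxidation branch, rose in F BPS and F E2 (0.57 and 0.74). Of 21 other mitochondrial oxidation genes 13 were lower and 1 higher in F BPSIP, led by the carnitine transporter Slc22a5 at 17.2 ± 1.46 CPM in F BPSIP and 43.8 ± 2.06 CPM in F Control (log2 fold change -1.35 ± 0.076, adjusted p = 4.46e-17). In M BPSIP minus M BPS 10 of the other peroxisomal genes were higher and 7 lower, and 8 of the mitochondrial ones higher and 1 lower. In the other exposures of females 5 of the mitochondrial ones were lower and 3 higher (2,4-BPS), 4 lower and 2 higher (BPS) and 5 lower and 3 higher (E2). These lists did not repeat the gap between the classes. In F BPSIP their medians were -0.20 (peroxisomal) and -0.286 (mitochondrial), against -0.83 and -0.27 in the members. In M BPSIP minus M BPS they were 0.0203 and 0.153, against 0.64 and 0.16. In F E2 7 mitochondrial members were higher and 0 lower, unlike the other mitochondrial genes.

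Ketone body genes moved both ways. The genes named here, Oxct1 and Aacs, use ketone bodies or acetoacetate and both rose in F BPSIP, while those called lower are not named. Oxct1, which spends ketone bodies and is low in liver, was at 16.4 ± 1.95 CPM in F BPSIP and 8.98 ± 1.15 CPM in F Control (log2 fold change 0.87 ± 0.12, adjusted p = 2.48e-07), and Aacs, which feeds acetoacetate into lipid synthesis, at 101 ± 5.97 CPM in F BPSIP and 37.8 ± 1.16 CPM in F Control (log2 fold change 1.42 ± 0.065, adjusted p = 1.17e-19). In all, 4 of 9 ketone body genes were lower and 3 higher in F BPSIP, 4 lower and 2 higher in F 2,4-BPS, 0 lower and 3 higher in F BPS and 2 lower and 6 higher in F E2. In M BPSIP minus M BPS 5 were higher and 3 lower.

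Of 29 other PPARα targets tested, 18 were lower and 4 higher in F BPSIP, 13 lower and 9 higher in F 2,4-BPS, 3 lower and 11 higher in F BPS, and 7 lower and 15 higher in F E2. In M BPSIP minus M BPS 15 were higher and 6 lower. The hormone Fgf21 was at 0.678 ± 0.0822 CPM in F BPSIP and 4.605 ± 0.0891 CPM in F Control (log2 fold change -2.76 ± 0.23, adjusted p = 2.23e-12), and the lipase inhibitor Angptl4 at 22.9 ± 1.62 CPM in F BPSIP and 120.5 ± 4.399 CPM in F Control (log2 fold change -2.39 ± 0.066, adjusted p = 3.69e-26). Cyp4a14, an ω-hydroxylase with near copies in its cluster, was at 1829.9 ± 83.4 CPM in F E2 and 994 ± 33.9 CPM in F BPS, against 229 ± 1.58 CPM in F Control (2.99 and 2.13 on the log2 scale). The targets did not all fall with BPSIP, as Acsl4 and Acsl3, synthetases that activate other fatty acids, rose (1.14 and 1.26).

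Among 28 regulators, 14 were lower and 2 higher in F BPSIP, and 17 were higher and 2 lower in M BPSIP than in M BPS. Ppara, the receptor itself, was at 207 ± 11.2 CPM in F BPSIP and 345 ± 6.58 CPM in F Control (log2 fold change -0.74 ± 0.074, adjusted p = 6.53e-09), and at 379 ± 10.3 CPM in M BPSIP and 232 ± 4.63 CPM in M BPS (log2 fold change 0.73 ± 0.047, adjusted p = 4.18e-20). In F E2 Ppara was lower too, at 237 ± 33.8 CPM (log2 fold change -0.55 ± 0.073, adjusted p = 2.41e-06), and 14 members were higher and 6 lower there. The part of Ppara RNA in the members' changes was not tested. In F 2,4-BPS and F BPS no difference in Ppara was found (0.082 and 0.04, adjusted p = 0.503 and 0.781). Its coactivator Ppargc1a was at 5.73 ± 0.591 CPM in F BPSIP and 13.5 ± 0.677 CPM in F Control (log2 fold change -1.24 ± 0.12, adjusted p = 2.87e-10). Lpin1, known as an amplifier of that pair, was at 65.4 ± 3.11 CPM in F BPSIP and 258 ± 2.32 CPM in F Control (log2 fold change -1.98 ± 0.077, adjusted p = 4.87e-17), but rose in F 2,4-BPS and F BPS (0.75 and 1.00).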

How the data were processed

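RNA-seq libraries were made with a SMARTER mRNA-Seq kit, per the labels' protocols, and the authors deposited whole-number counts per gene and FPKM values for 30 libraries. The submitters' processing notes name HISAT2, HTSeq, R 3.2.0 and DESeq2. No build, annotation or strand setting is stated in the labels or file headers. The members, the gene lists and the tests were chosen with earlier results of these data known. FPKM, as deposited, served only to compare levels between genes. Tests on the counts were run in edgeR 4.0.16 under R 4.3.3 (filterByExpr, TMM, robust glmQLFit, glmQLFTest), with Benjamini-Hochberg adjustment over all genes kept and a threshold of 0.05. Female comparisons used the 15 female libraries (13874 genes), male pairs the 12 exposed male libraries (13289 genes), and comparisons across the sexes all 30 libraries (14131 genes). All 33 members passed the filter in each. The scripts were tested on simulated data. Values ± after a log2 fold change are SE. With 3 libraries a group, p-values rest on the spread between these libraries, and counting error weighs most in the low counts of Acot2 and Acot3 in males. Where the results speak of a liver, a library is meant. How far the spread between libraries holds the spread between animals was not tested. All 3 libraries labelled M Control held both Y-linked and female-specific RNA, at similar levels. Within a sex, same-numbered libraries of different groups showed little sign of pairing, since 9 of 60 such pairs correlated above 0.1. Females and males of the same exposure were not checked for pairing, and the tests across the sexes treat them as independent. Libraries of a group differed beyond counting noise, so no library was treated as a repeat deposit, which does not show that they are separate animals. Named members were the largest changes in each direction among called genes, with Ehhadh, Cpt1a and Bdh1 added in each comparison with F Control, and for the differences of differences the 3 with the smallest p. Alternatives were DESeq2 1.42.0, RLE scaling, no filter, other sample sets, the replicate number as a block, a minimum change of 1.2-fold and leaving out each library. Fits without the 3 libraries labelled M Control were added after seeing the data. Single values of some genes of the other pathway lists are not reported here.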

Additional observations from a re-analysis of the deposited data

Results flagged for a closer look

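For 9 results, all taken from the genes with the smallest p in each comparison, the difference between an exposure and BPS was not the same in females and males by a test of the difference itself (edgeR, 30 libraries). The values are (F exposure minus F BPS) minus (M exposure minus M BPS) on the log2 scale. A negative value means a change against BPS that was more negative, or less positive, in females than in males. It does not mean a smaller response in females. With BPSIP they were -1.82 for Ehhadh, -1.91 for Acsl1 and -1.63 for Aldh3a2. With 2,4-BPS they were -0.903 for Ehhadh, -0.818 for Acsl1 and -0.398 for Acadm, and with E2 1.36 for Ehhadh, 1.43 for Eci1 and 0.854 for Acadm. Ehhadh was thus among them with each compound, negative with BPSIP and 2,4-BPS and positive with E2. All 3 comparisons use the same BPS livers, so their values for a gene are not independent of each other. With 3 libraries a group no single library was tested as standing apart.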

How the results depend on the processing

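Counts of called members stayed within 1.5 times the count given in the report under DESeq2, RLE scaling, no filter on low counts and other sample sets. A required change of at least 1.2-fold left fewer calls, since many changes were small. It left 9 members in F 2,4-BPS minus F Control, 3 in F BPS minus F Control, 9 in F E2 minus F Control, 8 in F 2,4-BPS minus F BPS, 19 in F BPSIP minus F BPS, 11 in F 2,4-BPS minus F BPSIP and 10 in F BPS minus F E2. Among males it left 5 in M 2,4-BPS minus M BPS, 17 in M BPSIP minus M BPS, 5 in M 2,4-BPS minus M E2, where the balance turned to 1 higher and 4 lower, and 9 in M BPS minus M E2. Between the sexes it left 15 in 2,4-BPS and 12 in BPS offspring, and 4 in the difference of differences for 2,4-BPS. F BPSIP minus F Control kept a count of 20. Without 1 library at a time, the counts against F Control were 21 to 24 (2,4-BPS), 29 to 30 (BPSIP), 8 to 9 (BPS) and 16 to 20 (E2), for M BPSIP minus M BPS 23 to 26, and for the differences of differences 9 to 11, 28 to 31 and 21 to 26 (2,4-BPS, BPSIP, E2). With the replicate number as a block, the counts against F Control were 25, 30, 10 and 20 in the same order of exposures, and Acot2 in F BPS was no longer called (adjusted p = 0.0532). Of 60 same-numbered pairs of libraries of the same sex and different groups, 9 correlated above 0.1. Among such libraries 9 of 30 correlated best with their own number. Cpt1a in F BPS minus F Control, near 0 and not called, changed sign in the fit of all 30 libraries (-0.006586), of the 2 groups alone (-0.002669), and without F BPS replicate 2 or 3 or F Control replicate 2, with a range of -0.0252 to 0.0467 over the fits without 1 library. Depth limits Acot2 and Acot3 in males most, with lowest counts in a library of 68 and 77.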

Other observations

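The libraries labelled M Control entered no tested contrast, though the fits over all 30 libraries held them. Since they did not match their label, their place beside other libraries measures no effect of exposure. They held the following levels of members. Ehhadh was at 371, 364 and 356 CPM, Bdh1 at 340.4, 329 and 336 CPM and Vnn1 at 7.15, 5.08 and 5.79 CPM, in each gene below every exposed male library. Acot3 was at 95.1, 87.4 and 106 CPM, above every exposed male library and every F BPSIP library and below every library of the other female groups. Cpt1a was at 675, 656 and 618 CPM and Pdk4 at 14.1, 13.1 and 12.6 CPM, and both ranges overlapped those of the exposed males.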
